A study of Mus musculus with 16 samples.

Results

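The genes described here form the cell's core defence against reactive oxygen species: Nfe2l2, Keap1, Hmox1, Sod1, Sod2, Cat, Gpx1, Gclc, Txnrd1 and Prdx3. H3K27Ac, the acetylated form of lysine 27 of histone H3 that is found at promoters and enhancers in use, was mapped at them by chromatin immunoprecipitation sequencing. A peak was counted for a gene when the authors' annotation assigned it that gene symbol. By this rule 44 of 53959 H3K27Ac peaks belonged to the set, and 9 of the 10 genes had at least 1 peak, among 10927 genes with an assigned peak in the series. Sod2 was the gene with none.

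Chromatin came from adult cardiomyocytes, the contractile cells of the heart, isolated by enzymatic perfusion of hearts of 3-month-old mice. The mice were Des+/+, with intact desmin, or Des-/-, which lack desmin, the muscle intermediate filament protein, in every cell and not only in cardiomyocytes. Each genotype was studied unstressed (basal) and after swimming exercise (swim), which gave 4 H3K27Ac libraries, Des+/+ basal, Des-/- basal, Des+/+ swim and Des-/- swim. Every library was made from chromatin pooled over several mice, and each group had 1 library, so no difference below has a replicate check and no p-value is given. The comparisons ask whether loss of desmin, or swimming in either genotype, goes with a different acetylation of the defence genes.

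The value used for each peak is its height, the deposited number of overlapping reads at the peak, beside the height of the input chromatin at the same place. The smallest height was 15 reads in each of the 4 lists, so a weaker peak is not seen. A height of 15 reads has a 95% Poisson interval of 8.4 to 24.7 reads, which covers counting error only. Total reads per library were not among the values used, and the lists differ in their general level: they held 15757, 16638, 11157 and 10407 peaks in the order Des+/+ basal, Des-/- basal, Des+/+ swim and Des-/- swim, with mean inputs of 2.96, 2.80, 3.07 and 5.48 reads. Promoters of 8 of 8 cardiomyocyte markers had a peak in every list but Des-/- swim, where Actc1 and Myl2 had none and 6 of 8 did. Their summed heights were 250, 257, 222 and 128 reads in the same order. Endothelial markers were also acetylated, at 8, 8, 6 and 6 of 8 promoters with summed heights of 316, 266, 189 and 209 reads, whereas fibroblast markers had 1, 2, 0 and 0 and leukocyte markers had 0 of 8 in every list. The part of these marker differences, and of the higher input of Des-/- swim, in the heights below was not tested.

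The heart runs on oxidative metabolism, and its mitochondria are a steady source of superoxide. Superoxide dismutases (Sod1 in the cytosol, Sod2 in the mitochondrial matrix) turn superoxide into hydrogen peroxide, which catalase (Cat), glutathione peroxidase (Gpx1) and the mitochondrial peroxiredoxin (Prdx3) remove. Nfe2l2 encodes NRF2, the transcription factor that drives many such genes through the antioxidant response element, and Keap1 encodes the adaptor that holds NRF2 in check by sending it for degradation until oxidants modify it. Glutathione supply depends on Gclc, the catalytic subunit of glutamate cysteine ligase, thioredoxin is kept reduced by Txnrd1, and Hmox1 breaks down haem.

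DNA at the start of 5 of the genes and in the upstream region of Gclc is shown. RefSeq promoter windows of the build GRCm38.p6 matched 8 of the 10 members (10 windows, since Txnrd1 has 3 starts), and Hmox1 and Gclc had none. The 250 bases before the start were searched on both strands for the antioxidant response element core TGACNNNGC, where N is any base, and matches are in capitals. Nfe2l2 (chr2:75704664-75704913, minus strand), Txnrd1 (chr10:82858956-82859205, plus strand) and Sod1 (chr16:90220512-90220761, plus strand) are shown because they hold a match. Sod2 (chr17:13007589-13007838, plus strand) and Cat (chr2:103485154-103485403, minus strand) are shown because results below turn on them and they hold none, although their peaks lie mostly after the start and cover few or none of these bases in some lists. For Gclc the 300 bases around the summit of its upstream region are given instead, from the genome of the same build (chr9:77750509-77750808, plus strand).
Nfe2l2: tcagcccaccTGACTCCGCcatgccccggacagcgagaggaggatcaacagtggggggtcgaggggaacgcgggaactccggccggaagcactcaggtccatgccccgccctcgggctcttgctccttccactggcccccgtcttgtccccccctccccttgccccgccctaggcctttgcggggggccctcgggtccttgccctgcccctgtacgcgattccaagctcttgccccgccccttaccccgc
Txnrd1: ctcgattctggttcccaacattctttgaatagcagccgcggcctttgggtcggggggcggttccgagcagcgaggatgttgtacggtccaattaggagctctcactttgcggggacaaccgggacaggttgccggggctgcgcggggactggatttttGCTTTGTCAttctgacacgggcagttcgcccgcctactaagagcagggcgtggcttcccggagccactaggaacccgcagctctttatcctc
Sod1: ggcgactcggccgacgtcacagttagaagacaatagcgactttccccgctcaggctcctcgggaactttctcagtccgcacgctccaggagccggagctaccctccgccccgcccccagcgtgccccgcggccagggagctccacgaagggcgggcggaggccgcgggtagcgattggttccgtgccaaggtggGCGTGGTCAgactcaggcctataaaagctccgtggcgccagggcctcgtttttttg
Sod2: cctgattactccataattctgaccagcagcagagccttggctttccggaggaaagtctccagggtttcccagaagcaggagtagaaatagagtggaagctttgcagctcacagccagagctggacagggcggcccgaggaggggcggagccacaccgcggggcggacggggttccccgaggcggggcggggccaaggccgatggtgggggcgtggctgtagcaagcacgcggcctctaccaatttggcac
Cat: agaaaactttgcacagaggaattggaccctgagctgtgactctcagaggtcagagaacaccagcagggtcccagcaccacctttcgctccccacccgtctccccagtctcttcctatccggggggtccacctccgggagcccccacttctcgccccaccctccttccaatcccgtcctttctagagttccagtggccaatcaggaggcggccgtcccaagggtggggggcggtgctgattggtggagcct
Gclc: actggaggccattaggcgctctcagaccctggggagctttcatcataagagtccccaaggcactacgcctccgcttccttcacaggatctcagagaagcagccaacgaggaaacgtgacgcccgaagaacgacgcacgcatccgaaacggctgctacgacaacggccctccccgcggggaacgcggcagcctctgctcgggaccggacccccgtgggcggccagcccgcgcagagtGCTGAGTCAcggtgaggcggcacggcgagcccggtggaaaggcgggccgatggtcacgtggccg

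The core was thus present in 3 of 10 member windows, against 10.2% of the 32851 RefSeq windows of that length. The GC box GGGCGG was found in 7 of 10, against 32.7%, and the TATA word TATAAA in 2 of 10, against 12.4%. The RefSeq windows include genes without a peak. In 300 bases around the summits of all genes' lead regions, the GC box was found in 49.6% and the TATA word in 4.1%. Neither word was counted around the member summits. Around the summits of the 16 acetylated regions at member genes, 300 bases each, the core was found in 4 (Keap1, Sod1, Sod2 and Gclc). It was found in 13.2% of the summit windows of 10455 lead regions of all genes. The 16 include regions that are not lead regions, so these are not shares of like windows. The match at Gclc, at chr9:77750745-77750753, reads GCTGAGTCA, and the same word lies near the Sod1 summit at chr16:90221023-90221031. That word also contains a binding word of the AP-1 factors, so the motifs overlap. Peaks covered the Gclc, Sod1, Keap1 and Sod2 summit matches in all 4 lists. A match is a description of the letters and not evidence of a bound factor.

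Acetylation of the defence genes was mostly at promoters, as it was over all peaks. The 4 lists held 11, 12, 11 and 10 member peaks in the order above, of which 7, 9, 10 and 7 were promoter peaks, within 1 kb of a start in the deposited annotation. These are 63.6, 75, 90.9 and 70% of member peaks, against 66.7, 66.1, 69.4 and 72.8% of all peaks. For each gene the lead region is the merged region of overlapping peaks with the largest summed height. The lead region had a peak in all 4 lists for 8 of the 9 genes with an assigned peak, Prdx3 being the exception, against 55.7% of all genes with one.

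**Figure D1:**
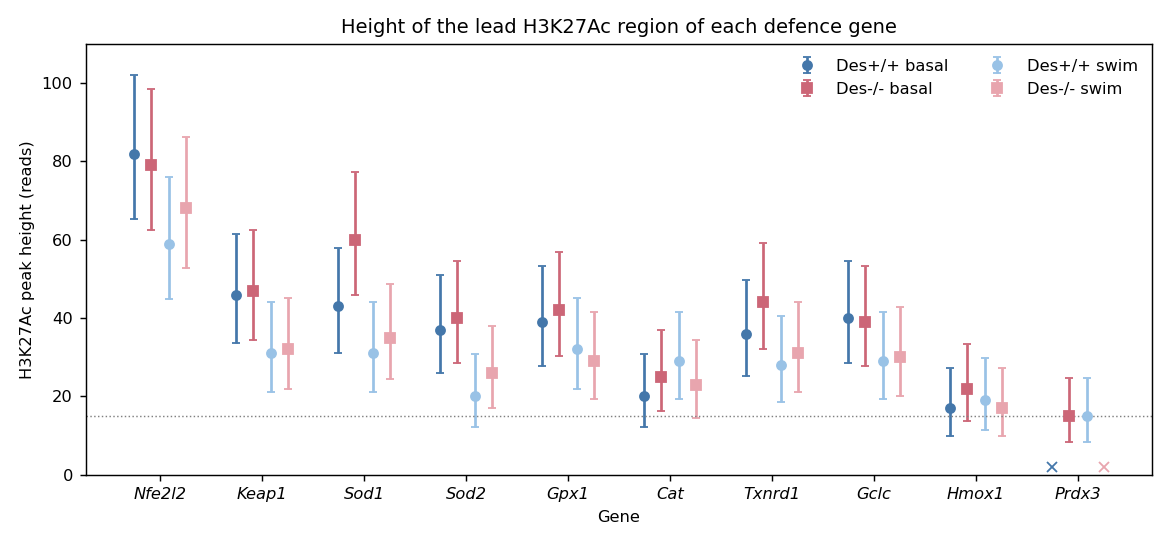
Height in reads of the lead H3K27Ac region of each defence gene (x axis) in the 4 libraries, with 95% Poisson intervals for counting error; for Sod2 the promoter region assigned to another symbol is drawn, crosses mark a library with no peak and the dotted line is the smallest height of the lists, 15 reads. Nfe2l2 is highest in every library, and Cat is the gene whose single highest value is in Des+/+ swim.

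Nfe2l2 carried the most acetylated region of the set. Its promoter region (chr2:75701994-75705366) had heights of 82 reads at rest and 59 after swimming in Des+/+, and of 79 and 68 reads in Des-/-. In the order of libraries given above, these heights exceeded those of 97.6%, 96.6%, 97.1% and 97.4% of the peaks of their lists, and the peaks were 2952, 3366, 2339 and 2703 bp wide, against list medians of 892, 912, 812 and 828 bp. The peak was lower after swimming in both genotypes, as regions were in general (medians are given with the ratios below). The antioxidant response element core in the sequence above, at chr2:75704895-75704903, lay inside it in all 4 lists.

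A second Nfe2l2 region lay in intron 1 (chr2:75682229-75684784), with summits 21276 to 21813 bp downstream of the start, and had heights of 51, 47, 30 and 29 reads. Its annotation changed with swimming although its place did not: it was assigned to Nfe2l2 in both basal lists and to the neighbouring gene Hnrnpa3, an RNA-binding protein, in both swim lists. Counted by symbol, Nfe2l2 therefore went from 3 to 1 peaks in Des+/+ and from 3 to 2 in Des-/-. Counted by position, over the gene body or within 1 kb upstream, it had 3, 3, 2 and 3 peaks. The peak that differed was the weak intronic region chr2:75684876-75686447, with 16 reads in Des+/+ at rest, no peak in Des+/+ after swimming, and 20 and 19 reads in Des-/- before and after it.

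Keap1, the NRF2 adaptor, had 1 promoter peak in each list (chr9:21237797-21239528), with 46 reads at rest and 31 after swimming in Des+/+, and 47 and 32 reads in Des-/-. The genotypes were 1 read apart in each condition.

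Of the dismutases, Sod1 had a promoter peak (chr16:90220598-90221730) of 43, 60, 31 and 35 reads, its highest value in Des-/- basal. The interval of 60 reads, 45.8 to 77.2, overlapped that of 43 reads, 31.1 to 57.9. For Sod2 no peak carried its symbol, but the promoter was not bare. A peak whose near edge lay at -23 to 54 bp from a Sod2 transcript start (chr17:13007794-13008947) was present in all 4 lists, with heights of 37, 40, 20 and 26 reads and inputs of 3, 3, 4 and 8 reads. It was assigned to Gm36117 in every list, through a transcript from chr17:13007996-13040063 that GENCODE M21 names Sod2, of the nonsense mediated decay type. The Sod2 entry of 0 peaks is thus one of naming and not of signal.

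**Figure D2:**
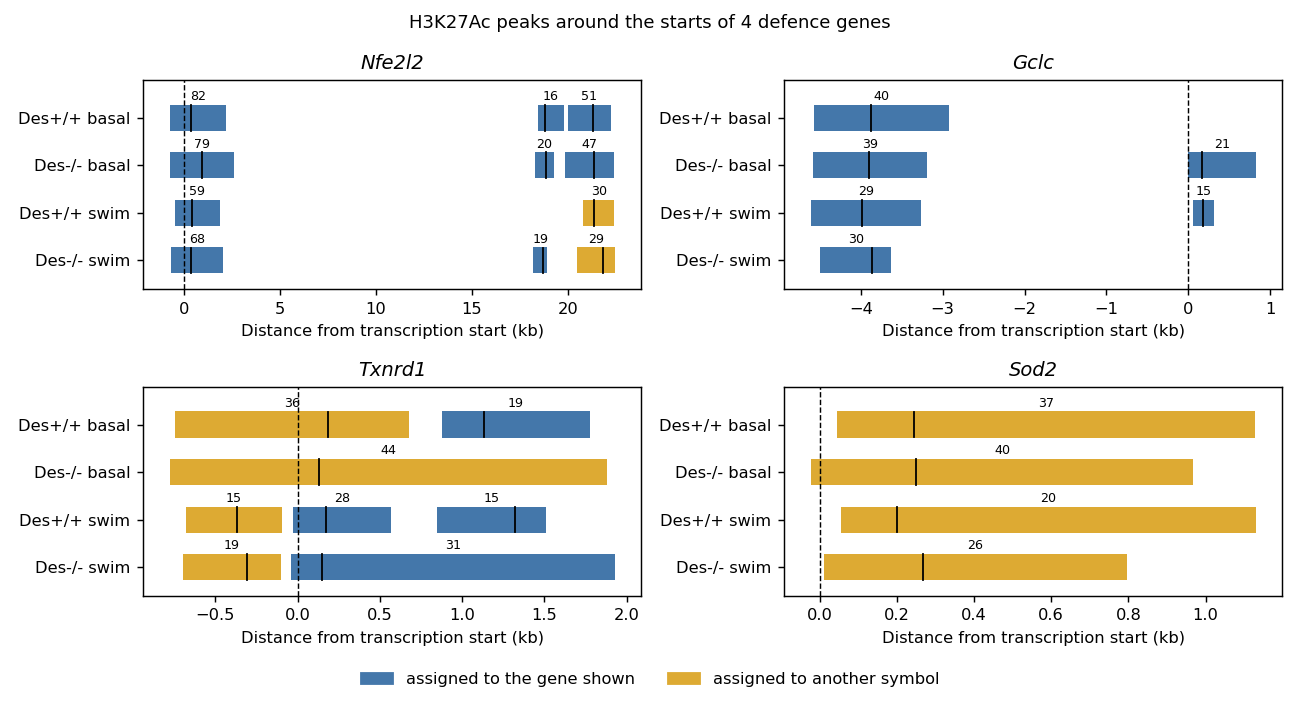
Peaks around Nfe2l2, Gclc, Txnrd1 and Sod2 in the 4 libraries, drawn by distance in kb from 1 transcription start per gene (dashed line); bars are peaks, black ticks their summits and numbers their heights in reads, and the distal Gclc peaks are left out. Gold bars, assigned to another symbol, make up all 4 Sod2 peaks and the Nfe2l2 intron peak after swimming. At Txnrd1 they are the highest peak of both basal lists and the peak before the start in both swim lists.

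Txnrd1, the cytosolic thioredoxin reductase, had the same ambiguity. By symbol it had 1, 0, 2 and 1 peaks, the 0 in Des-/- basal. Its promoter region (chr10:82858429-82861133) nevertheless had heights of 36, 44, 28 and 31 reads, with the highest value in that same library, where a single peak of 2659 bp was assigned to Gm38560, a noncoding gene read from the opposite strand of this promoter. In Des+/+ basal the peak of 36 reads was also assigned to Gm38560. Both swim lists split the region, with 15 and 19 reads before the start assigned to Gm38560 and 28 and 31 reads at the start assigned to Txnrd1. The antioxidant response element core at chr10:82859114-82859122 was covered in both basal lists and fell into the gap between peaks in both swim lists. The signal within the gap was not among the values used, and heights were lower in general after swimming. A loss of acetylation at the core is therefore not shown.

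This ambiguity was not particular to the defence genes. Of 5750 protein-coding genes with a peak within 1 kb of a start in all 4 lists, 511 (8.89%) had no peak of their own symbol in any list, and 489 (8.5%) had one in some lists but not in others. Among the members, 8 had such a peak in all 4 lists, with Sod2 in the first class and Txnrd1 in the second.

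The 3 peroxide-removing enzymes are given in turn. Gpx1 had a promoter peak (chr9:108338606-108340843) of 39 reads at rest and 32 after swimming in Des+/+, and of 42 and 29 reads in Des-/-. It was lower in both swim libraries, as regions were in general. Its scaled swimming ratios, explained below, were 0.15 in Des+/+ and -0.12 in Des-/-, with counting intervals that include 0. Cat had a weaker promoter peak (chr2:103484610-103485734), with 20, 25, 29 and 23 reads, and Des+/+ swim was its highest library. The Cat peak was narrower after swimming in both genotypes, 522 bp against 974 bp in Des+/+ and 466 bp against 1024 bp in Des-/-. The median width of all peaks was also smaller after swimming, 812 bp against 892 bp in Des+/+ and 828 bp against 912 bp in Des-/-. Its input after swimming was 2 reads against 4 in Des+/+ and 7 against 6 in Des-/-. Prdx3 was at the limit of the lists, with a promoter peak (chr19:60874045-60874591) of 15 reads in Des-/- basal and in Des+/+ swim and no peak in the other two.

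Gclc was acetylated upstream of its promoter more than at it. The lead region (chr9:77749925-77751608) was intergenic, with summits at -3981 to -3859 bp from the start, and had heights of 40, 39, 29 and 30 reads. No GENCODE M21 transcript overlaps the 300 bases printed above. The Gclc promoter itself had a peak only in Des-/- basal (21 reads, chr9:77754531-77755360) and in Des+/+ swim (15 reads, chr9:77754589-77754848). Peaks of 16 reads lay 59893 bp downstream of the nearest Gclc start in Des+/+ basal only, and 69049 bp downstream in Des-/- swim only, both beyond the end of the gene.

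Hmox1 had a low promoter peak (chr8:75093632-75094205) of 17 reads at rest and 19 after swimming in Des+/+, and of 22 and 17 reads in Des-/-, all within the counting error of each other. A second peak just upstream (chr8:75093002-75093500) had 18 reads in Des-/- basal and was absent from the other 3 lists. The summits of the first region lay 188 to 214 bp after the start, and that of the upstream peak, also annotated as promoter, lay at -422 bp.

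For the effect of desmin loss at rest, peaks with no overlapping partner (at least 1 bp) were counted. In Des-/- basal 3 of 12 member peaks, or 25%, had no partner in Des+/+ basal, against 19.7% of all peaks of that list. They were the Prdx3 promoter, the upstream Hmox1 peak and the Gclc promoter. In the other direction 1 of 11, the Gclc peak at 59893 bp, (9.09%) had no partner, against 14.5% of all peaks. After swimming, 2 of 10 member peaks of Des-/- had no partner in Des+/+ (background 22.2%), the weak Nfe2l2 intron peak and the Gclc peak at 69049 bp, and 2 of 11 of Des+/+ had none in Des-/- (background 27%), at the Prdx3 and Gclc promoters. Each of these counts is of 1 to 3 peaks, and none of the shares stands far from that of all peaks.

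For the effect of swimming, 2 of 11 member peaks of Des+/+ swim had no partner in Des+/+ basal (background 8.39%), again the Prdx3 and Gclc promoters, and 2 of 11 of Des+/+ basal had none in Des+/+ swim (background 39%). In Des-/-, 1 of 10 swim peaks had no partner in the basal list (background 6.28%), and 3 of 12 basal peaks had none in the swim list (background 44.8%). Every member peak without a partner, in any of the 8 counts, was 15 to 21 reads high. No member region of 22 reads or more in any list lacked a peak in another.

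Heights were then compared for the lead regions with a peak in both lists, as log2 ratios from which the median log2 ratio of all such regions was subtracted. This median was 0.08 for Des-/- basal against Des+/+ basal, 0.15 for Des-/- swim against Des+/+ swim, -0.44 for Des+/+ swim against Des+/+ basal and -0.42 for Des-/- swim against Des-/- basal. Ratios past 1.5-fold are called higher or lower, and intervals are exact 95% binomial intervals for counting error. A region needs 15 reads or more in both lists to be compared. A region near that floor in 1 list can hardly be seen lower in the other, which the intervals leave out.

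**Figure D3:**
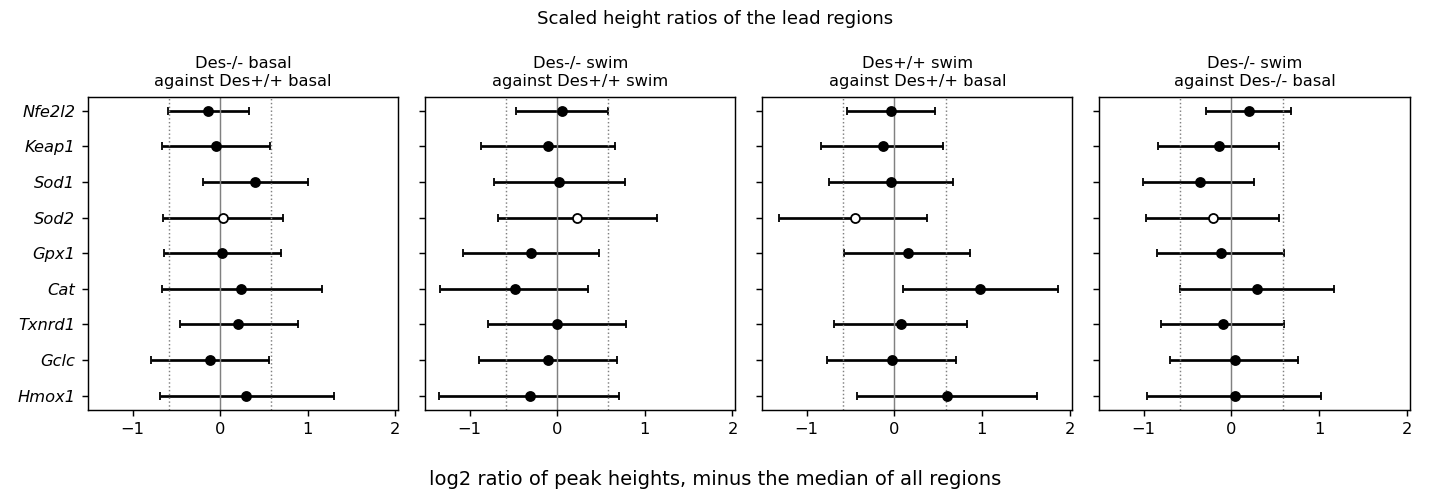
Scaled log2 ratio of lead region heights (x axis) for each defence gene in the 4 comparisons, with 95% counting intervals; dotted lines mark 1.5-fold and open circles the Sod2 promoter region, which carries another symbol. Of the points, those of Cat and Hmox1 in Des+/+ swim against Des+/+ basal lie past 1.5-fold, and the Cat interval there is the one that leaves out 0.

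By scaled height, loss of desmin moved none of the 8 compared genes past 1.5-fold, at rest or after swimming. With the input subtracted, Hmox1 at rest (0.63) and Cat after swimming (-0.75) were past it, a measure for which the share of all genes was not computed. At rest the ratios ran from -0.14 (Nfe2l2, interval -0.60 to 0.33) to 0.40 (Sod1, -0.19 to 0.998), with a median of 0.12 against 0.02 over all 9099 genes compared. Over all genes 3.12% were higher and 2.59% lower by scaled height. After swimming they ran from -0.49 (Cat, -1.34 to 0.35) to 0.05 (Nfe2l2, -0.47 to 0.58), with a median of -0.10 against 0.02 over 6143 genes, of which 3.4% were higher and 3.73% lower. The Sod2 promoter region, compared by position, had ratios of 0.03 at rest and 0.23 after swimming.

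Swimming in Des+/+ mice went with a higher Cat peak relative to the rest of the list. Its height of 29 reads against 20 gave a scaled log2 ratio of 0.97 (interval 0.10 to 1.87), a 1.96-fold difference, and 10 of the 7128 genes compared had a larger ratio. Hmox1, with 19 reads against 17, came to 0.60 (interval -0.42 to 1.63). These 2 of 8 members were called higher and 0 lower, against 3.18% higher and 4.31% lower over all genes. Both calls rest on the scaling: before it the ratios were 0.54 for Cat and 0.16 for Hmox1, neither past 1.5-fold, and 0.126% of all genes were higher and 36.9% lower. They are also limited by the floor of 15 reads. From basal heights of 20 and 17 reads, a scaled ratio below 0 could not be seen for Cat or Hmox1. The intervals and the rank of Cat do not allow for this. The other 6 genes lay between -0.13 (Keap1) and 0.15 (Gpx1), and the median of the 8 was 0.02 against -0.05 over all genes. The Sod2 promoter region, at 20 reads against 37, had the lowest ratio, -0.45 (interval -1.31 to 0.37).

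In Des-/- mice no member was past 1.5-fold after swimming by scaled height, against 3.28% of 7036 genes higher and 2.81% lower. Cat, with 23 reads against 25, had a ratio of 0.29 (interval -0.59 to 1.17), and whether its response differs between the genotypes was not tested. Sod1, with 35 reads against 60, was lowest at -0.36 (interval -1.01 to 0.26). Before scaling Sod1 was at -0.78, the 1 member past 1.5-fold, where 0.128% of all genes were higher and 31.8% lower. The median over the 8 genes was -0.03, as it was over all genes.

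**Figure D4:**
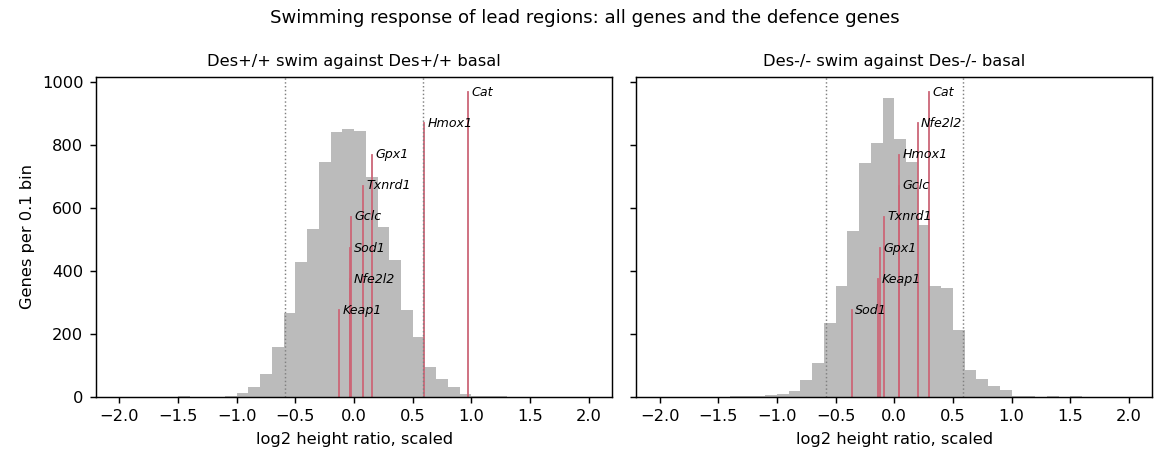
Histogram of scaled log2 height ratios of all genes' lead regions after swimming in Des+/+ (left) and Des-/- (right), in bins of 0.1, with red lines for the 8 defence genes and dotted lines at 1.5-fold. In Des+/+ Cat lies at 0.97, beyond all but 10 genes, and in Des-/- the 8 genes lie between -0.36 and 0.29.

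The wider oxidative stress system was described with 54 further genes of glutathione, thioredoxin, NRF2 regulation, NADPH, iron and mitochondrial defence. Of these, 45 had an assigned peak. Of the 45, 31 had a lead region in all 4 lists, against 55.7% of all genes with an assigned peak. The 31 included 8 of the 8 NRF2 partners and regulators. Among the small Maf proteins, which pair with NRF2 on DNA, Maff had 76, 97, 64 and 85 reads, Mafk had 78, 73, 53 and 62 reads, and Mafg had 52, 63, 36 and 49 reads. With desmin lost, 1 of 39 compared genes was higher and 0 lower at rest, against 3.12% and 2.59% of all genes. Between the genotypes after swimming, 1 of 31 was higher and 1 lower, against 3.4% and 3.73%. With swimming, 2 of 35 were higher and 1 lower in Des+/+, against 3.18% and 4.31% of all genes. In Des-/-, 1 of 33 was higher and 1 lower, against 3.28% and 2.81%. Before scaling the swimming counts were 0 higher and 11 lower in Des+/+, against 0.126% and 36.9% of all genes. They were 0 higher and 8 lower in Des-/-, against 0.128% and 31.8%. Counts this small do not set these genes apart from all genes.

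At rest Me1, malic enzyme and a source of NADPH, had 30 reads in Des-/- against 15 in Des+/+ (scaled log2 ratio 0.92). After swimming, Sesn1, a stress-induced sestrin, had 28 reads in Des-/- against 16 in Des+/+ (0.66), and Gstm1, a glutathione transferase, had 16 against 23 (-0.68, or -0.52 before scaling). Within Des+/+, Gsr, which regenerates reduced glutathione, had 21 reads after swimming against 16 (0.83) and Me1 had 19 against 15 (0.78), while Sesn1 had 16 against 36 (-0.73). Within Des-/-, Ucp2, a mitochondrial carrier, had 33 reads after swimming against 24 (0.87), and Rbx1, the RING subunit of the ligase that Keap1 recruits, had 23 against 48 (-0.65). Before scaling Gsr was at 0.39, Me1 after swimming at 0.34 and Ucp2 at 0.46, none past 1.5-fold, and Sesn1 at -1.17 and Rbx1 at -1.06. In Des+/+ basal, Me1 at 15 reads was at the floor of the lists and Gsr at 16 was near it. For swimming in Des+/+, a scaled ratio below 0 could therefore not be seen for either gene. At rest, Me1 could likewise hardly be seen lower in Des-/- than in Des+/+. Sesn1 at 16 reads in Des+/+ swim was also near the floor, and both of its ratios use that value. No counting intervals are given for these genes.

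No peak carried the symbols of Gpx3, Slc7a11, Gsta4, Mgst1, Txnrd2, Prdx4, Blvra, Slc40a1 or Sod3 in any list. As for Sod2, a symbol that no peak carries does not by itself say that the promoter lacks a peak. Sqstm1, whose p62 protein binds KEAP1, was chosen for mention after its values were seen. Its promoter region had 90, 95, 52 and 69 reads, above the Nfe2l2 promoter in every list but Des+/+ swim, in peaks assigned to Mgat4b.

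At the nuclear lamina, the 4 lamin A/C lists held 2190 peaks in all, and 0 of them were assigned to a member or lay over a member gene or within 1 kb upstream. A count of 0 allows a share of up to 0.137% of lamin A/C peaks, for counting error only. The members' share of H3K27Ac peaks, 0.0815%, is below that limit, so the 0 does not set the members apart.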

How the data were processed

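Adult cardiomyocyte ChIP-seq of 16 samples was used, of which 8 were inputs that enter only through the input height of each peak. Per the submitters' processing notes and the study's methods, single-end reads were aligned by the authors to GRCm38 (mm10) with Bowtie2 2.4.4 and SAMtools 1.13, peaks were called per library against its input with a laboratory script, and ChIPseeker 1.36.0 assigned genes. Duplicate removal, read extension and input scaling are not given in the sources used here. Bowtie2 at default settings places a read that fits several copies at 1 of them.

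The deposited peak and input heights are a coverage signal in whole reads, not scaled for depth. The deposited fold change is the ratio of height plus 1 to input plus 1 in 100% of peaks. The deposited distance to the nearest start is a score in bp. The authors' p-values were not used.

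Members and gene lists were chosen with earlier results of these data known. Genes named outside the members were those past 1.5-fold, at most 3 per comparison and direction, and those with no assigned peak, with Maff, Mafg, Mafk and Sqstm1 added after their values were seen. Peaks of the 4 lists were merged where they overlapped. With 1 library per group no test was possible. Ratios were scaled by the median of all regions, with 95% intervals that cover counting error only, in Python 3.11.15 (pandas 2.3.3, numpy 2.4.6, scipy 1.17.1, matplotlib 3.10.9), and the code was tested on simulated data. Alternatives were heights of 30 or more, equal list sizes, promoter peaks only, 50% overlap, partners within 1 kb, all member regions, no scaling, height minus input and fold over input. Counting by position (GENCODE M21) was added after the data were seen.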

Additional observations from a re-analysis of the deposited data

Results flagged for a closer look

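In 4 of the 8 compared members the scaled log2 ratio of the lead region after swimming had opposite signs in the genotypes. This difference was not tested. The share of all genes with opposite signs was not computed, so the count does not set the members apart. Nfe2l2 was at -0.037 in Des+/+ and 0.20 in Des-/-. Gpx1 was at 0.15 in Des+/+ and -0.12 in Des-/-. For Gclc the values were -0.026 and 0.037, and for Txnrd1 0.076 and -0.090, in the same order. All counting intervals of these 4 members include 0. The opposite signs come with the scaling: without it all 8 values were negative, at -0.47 and -0.22 for Nfe2l2, -0.29 and -0.53 for Gpx1, -0.46 and -0.38 for Gclc and -0.36 and -0.51 for Txnrd1.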

How the results depend on the processing

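Each group had 1 library, so none was left out, and 15 reads is the lowest height seen, so the gain or loss of a weak peak is within counting error. No paired analysis was possible because each group has a single library and no result comes from a test. Overlap of 50% and partners within 1 kb left each count of peaks without a partner within 1.5 times its value.

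At heights of 30 or more, member peaks fell to 6, 6, 4 and 5 in Des+/+ basal, Des-/- basal, Des+/+ swim and Des-/- swim, and the peaks without a partner were 0 in all 8 counts. That 0 was fixed in advance, since member peaks without a partner were all 15 to 21 reads high. Shares of all peaks without a partner were not computed for this setting or those that follow. These counts therefore do not compare the members with all peaks. Lists cut to equal numbers of their highest peaks, and promoter peaks alone, each gave 7 member peaks in Des+/+ basal. Peaks of Des+/+ basal without a partner in Des-/- basal became 0 with equal list sizes, with promoter peaks alone and by position. Peaks of Des+/+ basal without a partner in Des+/+ swim became 0 with equal list sizes and with promoter peaks alone, and 1 by position. Peaks of Des-/- swim without a partner in Des+/+ swim became 0 with promoter peaks alone and 1 by position, and those without one in Des-/- basal became 0 in both. With equal list sizes, 1 peak of Des+/+ swim had no partner in Des-/- swim, and 1 of Des-/- basal had none in Des-/- swim.

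The median member ratio became -0.21 for Des-/- basal against Des+/+ basal and -0.56 for Des-/- swim against Des+/+ swim when fold over input replaced height. Without scaling it was -0.41 for swimming in Des+/+ and -0.44 in Des-/-. Fold over input, which divides by inputs of 2 to 9 reads, moved 10 of 32 single gene ratios beyond their counting interval, and height minus input and no scaling moved 0 of 32 each. Calls changed all the same. No scaling lost both calls, Cat (0.54) and Hmox1 (0.16), and added Sod1 in Des-/- swim against Des-/- basal (-0.78). Height minus input added Hmox1 at rest (0.63) and Cat after swimming (-0.75) between the genotypes. Fold over input put 5 of 8 members past 1.5-fold in each comparison but swimming in Des-/-, where it was 4, for example Gclc at rest between the genotypes (-1.59) and after swimming in Des-/- (1.18), Txnrd1 after swimming between the genotypes (1.357) and Keap1 after swimming in Des-/- (-1.15). Shares of all genes past 1.5-fold with fold over input or height minus input were not computed. The counts by these measures therefore do not set the members apart from all genes. For Cat in Des+/+ swim against Des+/+ basal the ratio was 1.25 with height minus input and 1.67 with fold over input. For Hmox1 it was 0.9985 and 1.57.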
